A study of Mus musculus with 4 samples.

Results

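The genes of de novo fatty acid synthesis, the pathway by which liver builds fat from citrate, were followed in the liver of microsomic (M) and control (C) mice. The set holds 10 genes chosen by name, *Acly*, *Acaca*, *Acacb*, *Fasn*, *Scd1*, *Elovl6*, *Srebf1*, *Mlxipl*, *Me1* and *Thrsp*, out of 36161 gene names on the array. They carry 17 of 55681 probes, and every one of these probes is used. The rule uses gene names and no measured value, but the choice was not blind. The 10 genes, and the lists of other genes used below, were chosen with earlier results of these data known.

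Total RNA of whole liver was labelled with Cy3 and read in 1 colour on the Agilent SurePrint G3 Mouse GE 8x60K platform. There are 4 arrays, 1 for each group, namely microsomic (MF) and control (CF) females, and microsomic (MM) and control (CM) males. The labels give the strain as C57BL/6J and the age as embryonic day 20, whereas the methods describe newborn C57BL/6 N pups, no allele or treatment is named for any group, and microsomia is defined by a low birth weight for the sex in the colony, with littermates of normal weight as controls. The labels do not say whether RNA was pooled from several animals, and although the methods mention replicate experiments, 1 array a group is analysed here. A difference between 2 arrays therefore has no replicate check and no p-value. All arrays lie on 1 slide, with M in one column and C in the other, and females in one row and males in the other, so position and group cannot be told apart.

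Citrate exported from mitochondria is split into acetyl-CoA by ATP citrate lyase (*Acly*), acetyl-CoA is carboxylated to malonyl-CoA by the acetyl-CoA carboxylases (*Acaca*, *Acacb*), and fatty acid synthase (*Fasn*) joins the units into palmitate with NADPH, part of which malic enzyme (*Me1*) supplies. Palmitate is lengthened by *Elovl6* and desaturated by *Scd1*. In adult liver the pathway follows feeding through *Srebf1*, which encodes the insulin-responsive factor SREBP-1, and *Mlxipl*, which encodes the sugar-responsive factor ChREBP, and *Thrsp* (Spot 14) is a small nuclear protein that accompanies lipogenesis.

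The level of a probe is the log2 of its signal relative to the 75th percentile of signals on that array, so levels are compared between arrays for the same probe and never between probes. A gene is given by its brightest probe, and a difference is called when it is over 1.5-fold. The brightest probe of each of the 10 genes was well above background on all 4 arrays, and none of the 17 probes was saturated or marked as an outlier spot. In the liver of MF, 9 of the 10 genes were over 1.5-fold higher than in CF, where 19.9% of the 25538 genes compared were higher. The exception was *Acacb*, which was lower (21.1% of all genes were). In MM, 3 genes were over 1.5-fold higher than in CM (17.7% of 26315 genes) and 3 were lower (23.1%). The median difference of the 10 genes was 1.88 in log2 for MF vs CF, with a median of -0.04 over all genes compared, and 0.46 for MM vs CM, with a median of 0 over all genes.

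The MF array had the highest level of 8 of the 10 genes, CF of *Acacb* and MM of *Me1*. CM had the lowest level of 5 genes, MM of 3 and CF of 2. The plot of levels by array shows this order. The shares of all genes with each array highest or lowest were not counted.

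**Figure D1:**
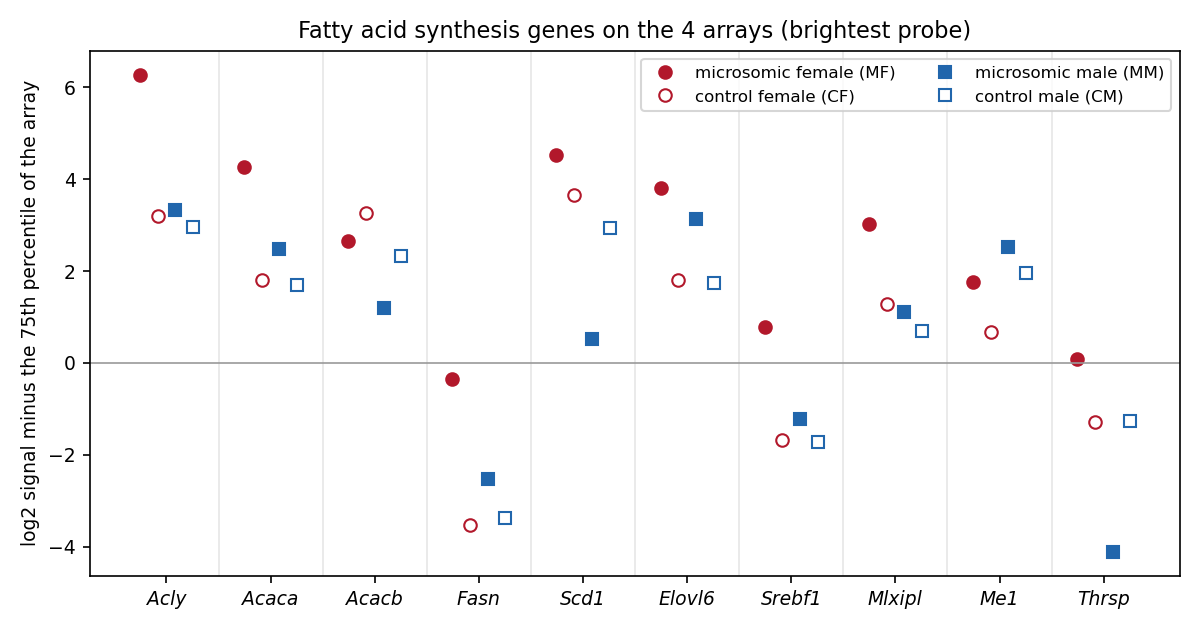
Log2 level (signal minus the 75th percentile of the array) of the brightest probe of the 10 fatty acid synthesis genes on each of the 4 arrays, 1 point an array, with filled symbols for microsomic and open symbols for control liver. MF (filled circle) is the highest of the 4 arrays for 8 genes, and MM (filled square) is the lowest for *Acacb*, *Scd1* and *Thrsp*.

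Probes of the same kind printed many times give a scale for the measurement. For 280 probes printed at 10 spots on each array, the standard deviation (SD) of the log2 difference between single spots was 0.37 for MF vs CF and 0.40 for MM vs CM. It covers spot error on these arrays and not the spread between animals. All 10 genes differed by more than this SD in MF vs CF and 9 in MM vs CM, the exception being *Acly*. The share of all genes past such an SD was not counted for any pair. At the wider limit of 1.5-fold, 19.9% of all genes were higher and 21.1% lower in MF vs CF. In MM vs CM, 17.7% were higher and 23.1% lower at that limit. Between the controls the corresponding SD was 0.44, and at their brightest probes 6 genes (*Acaca*, *Acly*, *Elovl6*, *Fasn*, *Srebf1* and *Thrsp*) differed by less than it between CM and CF. Other probes of *Acaca* and *Acly*, described below, put CM above CF by more than it. The log2 difference was 0.69 at *Acaca* A_55_P2084706, at least 1.02 at *Acaca* A_55_P2084703 and at least 1.54 at *Acly* A_55_P2082914.

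The promoters of the genes are shown for the elements by which textbook accounts describe their control. In the RefSeq table of GRCm38.p6, which gives 250 bases before to 50 after a gene's start, 9 of the 10 genes have an entry, with 13 promoters in all. *Scd1* has none there. Exact letters were searched on both strands. The sterol regulatory element TCACNCCAC was found in 1.24% of all 32851 promoters of the table and in 1 of the 13, that of *Mlxipl*. The E-box CACGTG was in 7.15% of all promoters and in 1 of the 13, again of *Mlxipl*. CCAAT was in 37.4% of all promoters and in 8 of the 13 promoters of the set, those of 7 genes (*Acacb*, *Acly*, *Fasn*, *Me1*, *Mlxipl*, *Srebf1* and *Thrsp*). The GC box GGGCGG was in 35.7% of all promoters and in 5 of the 13, those of 4 genes (*Acly*, *Me1*, *Mlxipl* and *Srebf1*). A match is a description of these letters and no match says only that the letters are not in this window. The promoters of *Acly* and *Fasn*, the genes with the largest differences in females, of *Thrsp*, which differed in opposite directions in the sexes, and the pair of *Mlxipl* are printed 5′ to 3′ with every match in capitals.
Acly, chr11:100527951-100528250, minus strand: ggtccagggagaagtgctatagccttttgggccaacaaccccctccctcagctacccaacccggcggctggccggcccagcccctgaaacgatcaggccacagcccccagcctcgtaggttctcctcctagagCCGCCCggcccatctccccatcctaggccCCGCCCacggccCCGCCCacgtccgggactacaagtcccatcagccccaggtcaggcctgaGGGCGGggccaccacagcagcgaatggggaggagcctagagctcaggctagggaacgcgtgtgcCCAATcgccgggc
Fasn, chr11:120824498-120824797, minus strand: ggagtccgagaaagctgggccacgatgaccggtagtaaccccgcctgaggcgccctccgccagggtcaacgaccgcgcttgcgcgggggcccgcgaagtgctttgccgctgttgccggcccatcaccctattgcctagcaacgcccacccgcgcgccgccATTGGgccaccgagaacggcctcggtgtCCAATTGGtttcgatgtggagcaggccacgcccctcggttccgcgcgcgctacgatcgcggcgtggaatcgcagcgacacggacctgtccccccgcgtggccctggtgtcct
Thrsp, chr7:97417501-97417800, minus strand: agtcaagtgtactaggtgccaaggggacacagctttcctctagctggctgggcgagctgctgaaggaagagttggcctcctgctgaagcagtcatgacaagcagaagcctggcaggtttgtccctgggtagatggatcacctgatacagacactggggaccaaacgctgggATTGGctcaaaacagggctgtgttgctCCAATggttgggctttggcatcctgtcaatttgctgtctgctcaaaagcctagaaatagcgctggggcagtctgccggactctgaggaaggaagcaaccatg
Mlxipl, chr5:135089640-135089939, plus strand: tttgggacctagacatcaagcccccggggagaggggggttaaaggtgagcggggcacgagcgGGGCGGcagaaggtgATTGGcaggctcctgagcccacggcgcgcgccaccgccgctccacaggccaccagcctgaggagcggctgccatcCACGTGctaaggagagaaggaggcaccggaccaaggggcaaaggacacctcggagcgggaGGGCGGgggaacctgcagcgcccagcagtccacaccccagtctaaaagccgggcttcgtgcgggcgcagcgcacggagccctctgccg
Mlxipl, chr5:135106641-135106940, plus strand: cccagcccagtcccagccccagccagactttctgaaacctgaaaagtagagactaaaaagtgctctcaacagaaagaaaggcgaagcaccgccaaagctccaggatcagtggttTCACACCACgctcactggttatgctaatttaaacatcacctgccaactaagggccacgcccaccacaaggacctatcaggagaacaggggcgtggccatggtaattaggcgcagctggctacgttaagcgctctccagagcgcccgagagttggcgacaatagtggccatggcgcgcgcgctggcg
*Fasn* holds 3 matches of CCAAT, 1 pair of which overlap on opposite strands, and *Thrsp* holds 2. *Acly* holds 1 CCAAT match and 4 GC box matches. The first *Mlxipl* promoter has the E-box and the second the sterol regulatory element.

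Supply of acetyl-CoA was represented by *Acly*. Its brightest probe, at chr11:100337674-100337733 (mm9, minus strand), read 6.27 on MF, 3.20 on CF, 3.32 on MM and 2.97 on CM. MF stood apart from the other 3 arrays, which lay close together. MF was 8.44-fold above CF (log2 difference 3.08), while MM was 1.27-fold above CM (0.35), which is not past the threshold.

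The carboxylases diverged. *Acaca*, which makes the malonyl-CoA used for synthesis, read 4.26 on MF, 1.81 on CF, 2.47 on MM and 1.71 on CM at its brightest probe (chr11:84215093-84215152, mm9, plus strand). MF was 5.49-fold above CF (2.46) and MM 1.70-fold above CM (0.77), so both microsomic arrays were above both controls. *Acacb* encodes the carboxylase of the mitochondrial surface, whose malonyl-CoA restrains fatty acid oxidation, and read 2.66 on MF, 3.26 on CF, 1.18 on MM and 2.32 on CM (chr5:114700702-114700761, mm9, plus strand). MF was 1.52-fold below CF (-0.60), just past the threshold, and MM 2.19-fold below CM (-1.13). *Acacb* was the only one of the 10 genes that was lower in M in both sexes.

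*Fasn*, the synthase itself, read -0.36 on MF, -3.53 on CF, -2.53 on MM and -3.38 on CM (chr11:120667666-120667725, mm9, minus strand). The controls of both sexes lay close together, MM was above them and MF far above all. MF was 9.01-fold above CF (3.17), the largest difference of the 10 genes in the main setting, and MM 1.80-fold above CM (0.85). The probe was dim on the controls, with signals of 58.6 on CF and 60.3 on CM, where the 75th percentiles were 675.9 and 627.6. With normexp background correction and the 75th percentile, *Fasn* was 2.37 in MF vs CF, below *Acly* at 2.87. In MM vs CM it was 0.13 in that setting. *Me1*, which makes cytosolic NADPH, read 1.75 on MF, 0.67 on CF, 2.53 on MM and 1.97 on CM (chr9:86475077-86475136, mm9, minus strand). MF was 2.12-fold above CF (1.09), and MM was 1.48-fold above CM (0.56), not past the threshold. *Me1* was the only one of the 10 genes over 1.5-fold higher in CM than in CF, with a log2 difference of 1.30.

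The enzymes that modify palmitate also parted. *Elovl6*, the elongase that turns palmitate into stearate, read 3.80 on MF, 1.81 on CF, 3.14 on MM and 1.74 on CM (chr3:129341248-129341307, mm9, plus strand). The controls differed by 0.07 and both microsomic arrays were above them, MF by 3.98-fold (1.99) over CF and MM by 2.63-fold (1.39) over CM. *Elovl6* was the only one of the 10 genes over 2-fold higher in M in both sexes. *Scd1*, the stearoyl-CoA desaturase, read 4.53 on MF, 3.64 on CF, 0.52 on MM and 2.94 on CM (chr19:44469387-44469446, mm9, minus strand). MF was 1.85-fold above CF (0.89) and MM 5.38-fold below CM (-2.43). MM lay below all other arrays, so that the level in MM was 16.2-fold below that in MF.

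The regulators of the pathway were higher in MF. *Srebf1* read 0.79 on MF, -1.68 on CF, -1.22 on MM and -1.72 on CM (chr11:60012664-60012723, mm9, minus strand). MF was 5.54-fold above CF (2.47) and MM 1.41-fold above CM (0.50), with the controls 0.04 apart. *Mlxipl* read 3.03 on MF, 1.27 on CF, 1.12 on MM and 0.70 on CM (chr5:135613705-135613764, mm9, plus strand). MF was 3.39-fold above CF (1.76) and MM 1.34-fold above CM (0.42). The probe of *Srebf1* is 1 for the gene name, and the forms of SREBP-1 made from different promoters are not told apart here.

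*Thrsp* read 0.08 on MF, -1.29 on CF, -4.11 on MM and -1.27 on CM (chr7:104561649-104561708, mm9, minus strand). The controls were equal to within 0.02, MF lay 2.58-fold above CF (1.37) and MM 7.17-fold below CM (-2.84). The microsomic sexes were 18.2-fold apart, the widest gap between MM and MF among the 10 genes. The signal on MM was dim, 53.6 where the 75th percentile was 925.0. With normexp background correction and the 75th percentile, MM vs CM was -1.48. *Thrsp* and *Scd1* were over 1.5-fold higher in MF and over 1.5-fold lower in MM, 2 of the 10 genes, a pattern that 5.81% of the 23967 genes compared in both sexes had. The opposite pattern (4.04% of all genes) occurred in none of the 10.

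Counted over both sexes, 3 of the 10 genes (*Acaca*, *Elovl6* and *Fasn*) were over 1.5-fold higher in M in both, where 3.19% of all genes were, and 1 (*Acacb*) was lower in both, where 3.80% were. At the brightest probes, the MF vs CF difference exceeded the MM vs CM difference for all 10 genes. The excess in log2 was 0.52 (*Me1*) to 4.21 (*Thrsp*). At the *Me1* probe A_55_P2016842, described below, it was -0.1. The share of all genes with such an excess was not counted, and this contrast of the sexes was not tested. The same 4 arrays read the other way gave 9 genes over 1.5-fold lower in MM than in MF (20.5% of 26735 genes), with *Me1* alone higher (28.9%). Between the controls, *Acacb* and *Scd1* were over 1.5-fold lower in CM than in CF (19.7% of 25204 genes) and *Me1* was higher (26.6%). The median of the 10 genes was -1.96 for MM vs MF (0.12 over all genes) and -0.09 for CM vs CF.

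limma was fitted to all 4 arrays over 19303 genes well above background on each, with terms for birth weight class (M or C) and sex and 1 residual degree of freedom, so that it takes the sexes as replicates. None of the 10 genes, and no gene in all, passed an adjusted p of 0.05, and the adjusted p in limma was 0.995 for each of the 10 (smallest of all genes 0.964). At an unadjusted p of 0.05 in limma, 5 of the 10 genes and 853 of all genes (4.42%) passed. The 5 were *Elovl6*, with a log2 M minus C of 1.69 (SE 0.43), *Fasn* with 2.01 (SE 0.59), *Acaca* with 1.61 (SE 0.51), *Srebf1* with 1.48 (SE 0.55) and *Acly* with 1.71 (SE 0.65). *Scd1* and *Thrsp* had coefficients of -0.77 (SE 0.73) and -0.74 (SE 0.87), with errors about as large as the coefficients themselves.

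Several genes have more than 1 probe. Those more than 3000 bases of genome away from the brightest probe report another stretch of the transcript and are printed here 5′ to 3′ from the array annotation (mm9).
Acly, A_55_P2082914, chr11:100365518-100365577, minus strand: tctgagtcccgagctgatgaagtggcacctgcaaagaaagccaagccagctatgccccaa
Acaca, A_55_P2084703, chr11:84211638-84211697, plus strand: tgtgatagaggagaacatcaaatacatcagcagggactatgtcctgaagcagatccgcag
Acaca, A_55_P2121392, chr11:84009021-84009080, plus strand: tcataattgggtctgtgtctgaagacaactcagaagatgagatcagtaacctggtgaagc
Me1, A_55_P2016842, chr9:86480571-86480630, minus strand: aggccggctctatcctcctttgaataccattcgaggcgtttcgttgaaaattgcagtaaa
The far *Acly* probe read -2.42 on MF, -2.76 on MM and -2.60 on CM, and -4.14 on CF, where it was not well above background. MF was at least 3.28-fold above CF, and MM lay 0.16 below CM in log2. The *Acaca* probe A_55_P2084703 read -2.82 on MF, -3.36 on MM and -3.62 on CM and was not well above background on CF (-4.64), so that MF was at least 3.54-fold above CF and MM 1.20-fold above CM. The bounds here are against the lowest signal well above background on CF or the probe's own signal where that is higher. The *Acaca* probe A_55_P2121392 was not well above background on any array.

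The far *Me1* probe read 1.09 on MF, 1.37 on CF, 1.44 on MM and 1.61 on CM, which is -0.27 for MF vs CF and -0.18 for MM vs CM. A further *Me1* probe, A_55_P2171413, gave 0.36 and -0.10. Neither was past 1.5-fold, so the call of *Me1* in MF rests on the brightest of its 3 probes. The second *Acacb* probe, A_55_P2104532, gave -0.41 (1.33-fold lower) for MF vs CF and -0.96 (1.95-fold lower) for MM vs CM, the same direction as the brightest probe and within 1.5-fold in females.

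The *Acaca* probe A_55_P2084706 shares a run of 55 bases with the brightest *Acaca* probe and reads nearly the same stretch. It read 3.54 on MF, 1.31 on CF, 1.96 on MM and 1.99 on CM, which is a 4.70-fold difference of MF over CF (2.23) and -0.03 for MM vs CM. The female difference was thus seen by 3 *Acaca* probes and the male call by the brightest alone.

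**Figure D2:**
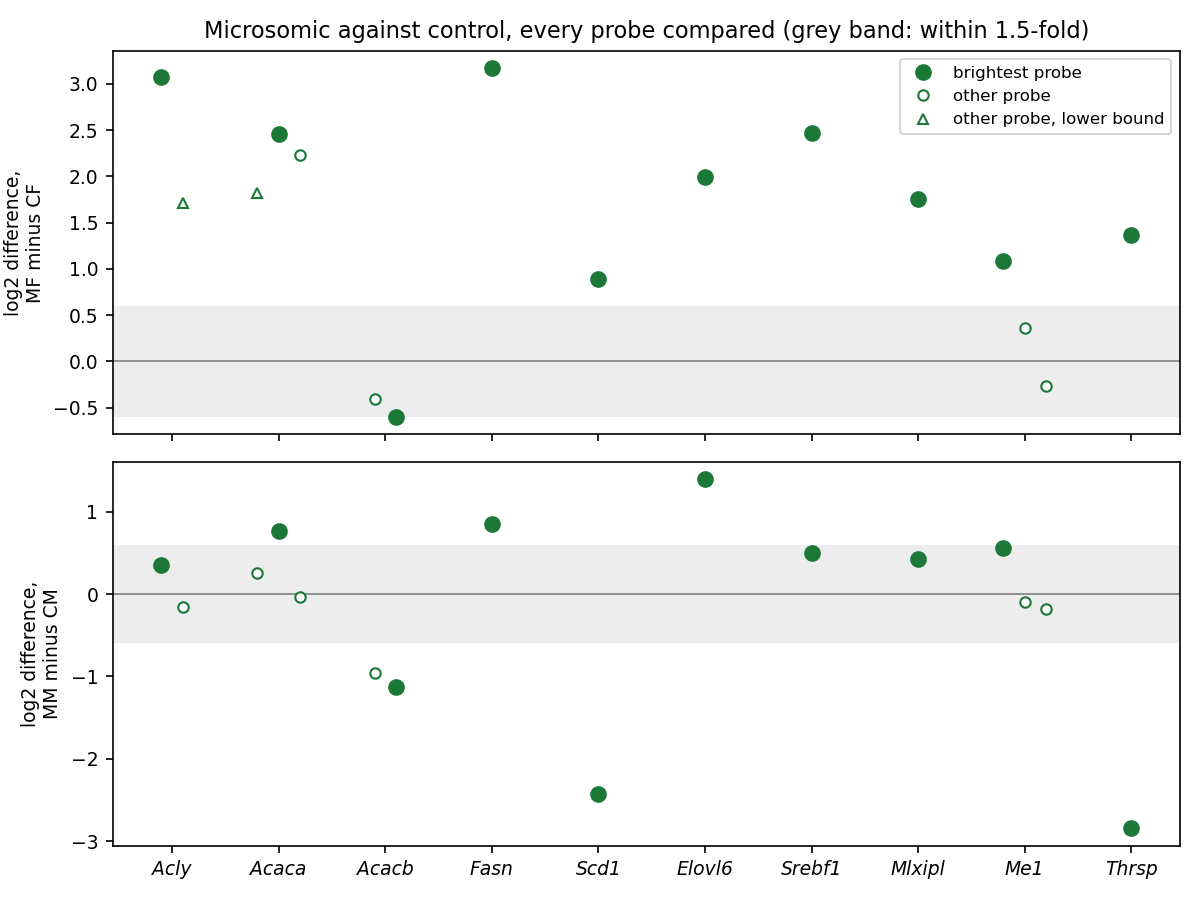
Log2 difference of each compared probe of the 10 genes for MF minus CF (upper panel) and MM minus CM (lower panel), with the brightest probe filled, other probes open and a triangle where the difference is a lower bound. The grey band holds differences within 1.5-fold. In the upper panel the *Acly* and *Acaca* probes all lie above the band while 2 of 3 *Me1* probes lie inside it, and in the lower panel only the brightest of the *Acaca* probes lies above it.

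A further 98 names in 6 lists cover the surroundings of the pathway, and 88 of them are on the array with a usable probe. For MF vs CF, 26 of the 83 genes compared were over 1.5-fold higher and 10 lower (19.9% and 21.1% of all genes were), with a median of 0.24. For MM vs CM, 22 of 83 were higher and 10 lower (17.7% and 23.1% of all genes), with a median of 0.25. Of 82 genes compared in both sexes, 6 were higher in M in both (3.19% of all genes), 1 was lower in both (3.80%) and 8 went opposite ways (9.85%). The genes named below were taken by a rule on direction and size, up to 4 alike in both sexes and up to 2 opposite in each list, and are a description.

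Among the 10 genes that supply acetyl units and NADPH, such as the citrate carrier and the pentose phosphate enzymes, 2 were higher and none lower in each sex, and none was called in both. In the desaturation and elongation list, 5 of 15 genes were higher and 3 lower in MF vs CF, and 5 of 14 were higher and 3 lower in MM vs CM. *Fads2*, the delta-6 desaturase of polyunsaturated fat, was 2.31-fold higher in MF and 3.85-fold higher in MM than in the control of the same sex. *Ptpla*, a dehydratase of the elongation cycle, was 1.67-fold and 2.86-fold higher.

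*Scd3*, a paralogue of *Scd1*, read -0.07 on MF, 0.84 on CF, -3.40 on MM and -0.05 on CM. It was 1.88-fold lower in MF than in CF and 10.2-fold lower in MM than in CM, so that with *Scd1* both desaturases were lowest in MM. *Tecr*, the reductase of the elongation cycle, was 2.02-fold higher in MF and 2.02-fold lower in MM than in the control of the same sex.

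In glycerolipid assembly, 6 of 17 genes were higher and 2 lower in MF vs CF, and 3 of 18 were higher and 2 lower in MM vs CM, with none called the same way in both. *Pnpla3*, a lipid droplet protein regulated with lipogenesis, read -1.11 on MF, -1.95 on CF, -4.23 on MM and -1.96 on CM. It was 1.79-fold higher in MF and 4.82-fold lower in MM, the pattern that *Scd1* and *Thrsp* had.

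Of 23 genes that control lipogenesis, 7 were higher and 4 lower in MF vs CF, and 10 were higher and none lower in MM vs CM, with 4 higher in both. *Insig1*, which holds the SREBP escort in the endoplasmic reticulum and is itself an SREBP target, read 4.15 on MF, 0.81 on CF, 2.15 on MM and 1.25 on CM. MF was 10.1-fold above CF and MM 1.86-fold above CM. *Mid1ip1*, a relative of *Thrsp* that promotes the polymerization of acetyl-CoA carboxylase, was 2.36-fold and 1.93-fold higher.

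*Srebf2*, the factor of cholesterol synthesis, was 1.69-fold and 1.56-fold higher, and *Prkaa1*, a catalytic subunit of AMP-activated kinase, 1.90-fold and 2.41-fold higher in MF and MM. *Mbtps2*, the site-2 protease of SREBP, was 2.16-fold lower in MF, and in MM at least 2.08-fold above the CM array, on which it was not well above background. *Prkag2*, a regulatory subunit of AMP-activated kinase, was 2.46-fold lower in MF and 1.67-fold higher in MM.

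In the list of sugar use and ChREBP targets, 6 of 10 genes were higher and none lower in MF vs CF, where 19.9% of all genes were higher, with a median of 0.77. In MM vs CM none was higher and 5 were lower, where 23.1% of all genes were lower, with a median of -0.48. The genes called in opposite directions were 3 of the 10, and the difference between the sexes was not tested. *Txnip*, a glucose-responsive ChREBP target, read 8.19 on MF, 5.79 on CF, 4.17 on MM and 5.60 on CM, which is 5.27-fold higher in MF and 2.68-fold lower in MM. Of the 8 genes of the separate mitochondrial fatty acid synthesis pathway, 1 was lower in MF and 2 were higher in MM, and *Ndufab1*, its acyl carrier protein, was 1.62-fold lower in MF and 1.55-fold higher in MM.

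**Figure D3:**
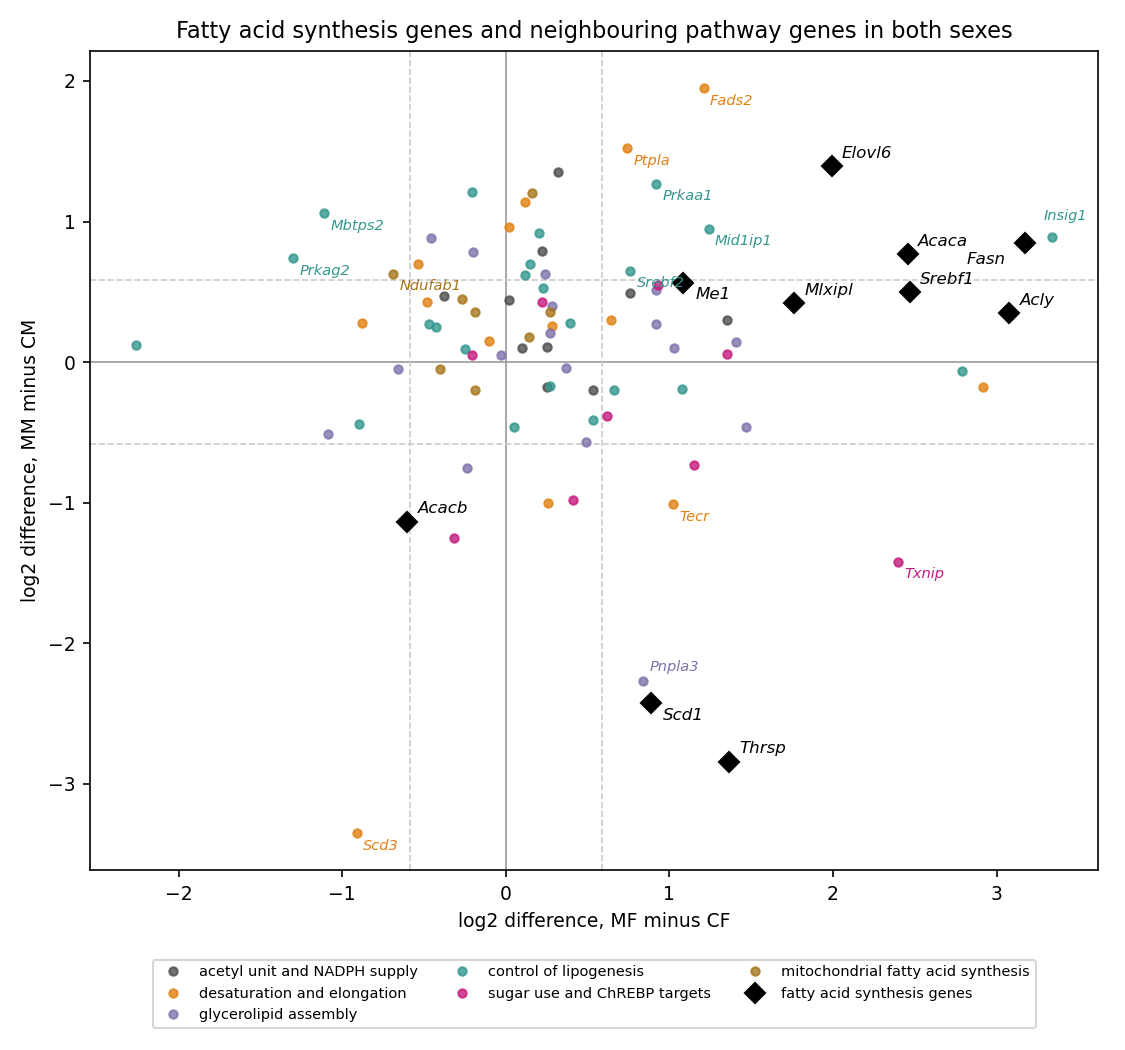
Log2 difference MF minus CF (horizontal axis) against MM minus CM (vertical axis), 1 point a gene, for the 10 fatty acid synthesis genes (black diamonds) and genes from 6 surrounding pathway lists (coloured points), with dashed lines at 1.5-fold. *Acly*, *Fasn*, *Srebf1* and *Acaca* lie far to the right with *Insig1*, while *Scd1* and *Thrsp* lie at the lower right with *Pnpla3*.

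Genes of other tissues were measured beside these results. All 11 hepatocyte markers on the array were well above background on all 4 arrays, and their summed level relative to the 75th percentile was 6120 on MF, 6010 on CF, 4480 on MM and 5940 on CM. Fewer cells of a type and less RNA per cell cannot be told apart in whole liver. The adipocyte markers *Plin1*, *Lep* and *Cfd* were not well above background on any array, and none of the 5 adipocyte markers compared was over 1.5-fold higher in MF than in CF, with a summed level of 35.8 on MF, 55.9 on CF, 23.1 on MM and 25.9 on CM. *Fabp4* carries most of that sum on each array, with log2 levels of 5.11 on MF, 5.76 on CF, 4.42 on MM and 4.54 on CM. Of the same 5 markers, 1 was over 1.5-fold lower in MF than in CF (21.1% of all genes were). In MM vs CM none of the 5 was higher and 2 were lower (23.1% of all genes), with a median of -0.58. The 2 were *Retn*, 3.01-fold lower, and *Cidec*, 1.52-fold lower. The 6 brown adipocyte markers summed to 1.93 on MF, 4.80 on CF, 1.01 on MM and 4.39 on CM. *Ucp1* and *Elovl3* were not well above background on any array, *Dio2* was on MM only, and *Cox7a1* and *Otop1* were on all 4. *Cidea*, a lipid droplet protein of that list, read -1.30 on MF, 0.63 on CF and 1.53 on CM and was not well above background on MM, at least 95.6-fold below CM. MM was thus the lowest array of *Cidea*, as for *Scd1*, *Scd3* and *Thrsp*. The other markers of the list did not share a drop of that size. *Cox7a1* was 2.43-fold lower in MF than in CF and 1.72-fold lower in MM than in CM. *Otop1* was 1.62-fold and 1.1-fold higher. The part of adipocytes, brown or other, in those values was not tested. The 10 intestinal epithelium markers summed to 72.6 on MF, 7.14 on CF, 31.6 on MM and 6.39 on CM. Of the 8 compared in MF vs CF, 6 were over 1.5-fold higher, and *Cdx2* and *Alpi* were well above background on MF only. Of the 6 compared in MM vs CM, 1 was over 1.5-fold higher and 4 were lower. The 1 was *Fabp2*, which carries most of the sum on each array, with log2 levels of 5.95 on MF, 2.81 on CF, 4.98 on MM and 2.59 on CM. The 8 heart muscle markers summed to 176 on CF, 0.811 on MF, 0.965 on MM and 2.64 on CM, and 7 of the 8 were lower in MF than in CF. The 9 erythroid markers measured summed to 2270 on MF, 3040 on CF, 1700 on MM and 2650 on CM. The part of the intestinal, heart and erythroid RNA in the MF vs CF differences was not tested.

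Each difference was recomputed under 11 alternative settings of the processing. The sign of MF vs CF was kept in all 11 for each of the 10 genes, and that of MM vs CM for 8 genes. Dropping the filter on dim probes, requiring both arrays well above background or keeping flagged spots could not change these values. The brightest probes of the 10 genes already passed those filters. *Acaca* in MM vs CM ranged from -0.16 to 1.33 and turned negative with the mean over its probes, and *Mlxipl* ranged from -0.31 to 0.98 and was negative in 2 settings, both with normexp background correction. In MF vs CF, *Fasn* kept between 2.37 and 3.57, *Acly* between 2.20 and 3.48 and *Srebf1* between 1.99 and 2.87. *Elovl6* kept above 1.5-fold in both sexes, between 1.84 and 2.39 and between 1.30 and 1.95. In MM vs CM, *Scd1* ranged from -2.53 to -1.54 and *Thrsp* from -2.84 to -1.01. *Fasn* in MM vs CM ranged from 0.13 to 1.41 and *Acacb* in MF vs CF from -0.64 to -0.20, and both crossed the threshold, as did *Scd1* (0.41 to 1.29) and *Me1* (0.39 to 1.49) in MF vs CF. In MM vs CM the threshold was also crossed by *Acly* (0.08 to 0.91), *Srebf1* (0.30 to 1.06), *Me1* (0.10 to 1.12) and *Acacb* (-1.41 to -0.57). *Acaca* and *Mlxipl* crossed it there too, so most calls in MM vs CM depend on the setting.

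**Figure D4:**
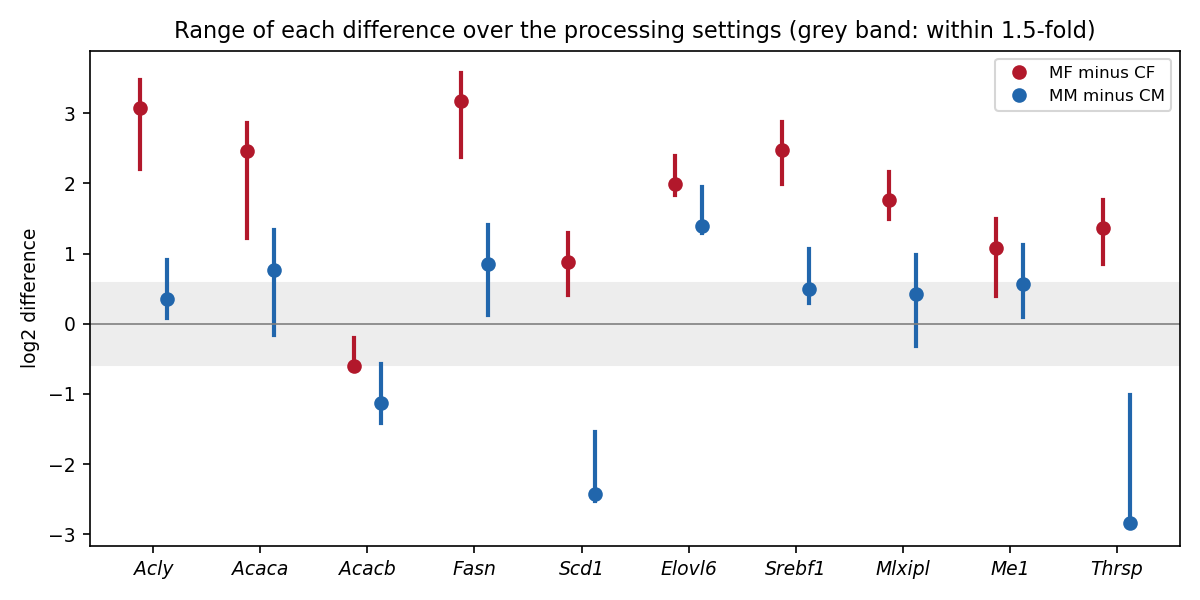
Log2 difference of the brightest probe in the main setting (point) and its range over that setting and 11 alternatives (line) for each gene, MF minus CF in red and MM minus CM in blue, with differences within 1.5-fold in grey. The MF minus CF line of *Fasn*, *Acly*, *Srebf1*, *Mlxipl*, *Acaca*, *Elovl6* and *Thrsp* stays above the grey band, and the MM minus CM line of *Scd1* and *Thrsp* stays below it.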

How the data were processed

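Liver RNA of 4 samples was measured, 1 array each. The authors labelled the RNA with Cy3, hybridized it to Agilent arrays and read the scans with the software Agilent Feature Extraction (version 10.7.3.1 per the file headers). The deposited processed signal is a linear intensity after subtraction of a background surface and removal of a spatial trend, not scaled between arrays, and the table of values the authors deposited equals it in all 62976 spots. Gene names and probe positions (mm9) come from the array's annotation. Signals of the 59305 non-control spots were divided by their 75th percentile on each array and taken to log2. These percentiles were 892.8 (MF), 925.0 (MM), 675.9 (CF) and 627.6 (CM), and 56.1 to 65.3% of spots were well above background. Without this scaling the MF and MM arrays are higher than their controls by 0.40 and 0.56 in log2 at the 75th percentile. In all, 1754 spots with an outlier flag were left out, repeated spots of 1 probe were averaged, and each gene was represented by its probe of highest mean level. Genes well above background on 1 or both arrays of a pair were compared, the dim array being taken at its limit (log2 -6.03 on MF, -5.83 on MM, -5.48 on CF, -4.69 on CM) or its own signal where higher. limma 3.58.1 (R 4.3.3) was fitted as described, with Benjamini-Hochberg adjustment, and tested on simulated data. The number of arrays limits the precision. The pathway genes named are, per list, up to 4 over 1.5-fold the same way in both sexes by the smaller difference and up to 2 in opposite ways, 1 of which is not reported here. The exocrine pancreas and skin lists were also measured. The members and all lists were chosen with earlier results of these data known. Alternatives covered scaling, background correction (normexp, offset 50), filters, probe choice, the fold threshold and trends with probe GC content and position.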

Additional observations from a re-analysis of the deposited data

Results flagged for a closer look

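*Scd1* and *Thrsp* were each higher in MF than in CF and lower in MM than in CM. The MF vs CF difference exceeded the MM vs CM difference by 3.31 in log2 for *Scd1* and by 4.21 for *Thrsp*. With 1 array a group, whether other arrays of the same sex would move the same way cannot be seen. The difference between the sexes was not tested.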

How the results depend on the processing

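Of the counts, medians and limma results, 72 kept their value within the limits set and 13 moved, and of the values of single genes 174 kept, 45 moved and 1 reversed. The kept values include the settings on dim probes and flagged spots, which could not change the differences of the 10 genes. The count of genes lower in MF than in CF, 1 (*Acacb*), was 0 with median centring, normexp with the 75th percentile, the deposited values without scaling, the mean over probes, a 2-fold threshold and the trend with position removed. The count of genes higher in MM than in CM, 3, was 7 with median centring, 5 with normexp and quantile normalization, 7 without scaling and 1 at 2-fold. Without scaling the median difference was 2.28 for MF vs CF and 1.02 for MM vs CM, where the medians of all genes were 0.34 and 0.50. The share of all called genes that were higher, 48.5% for MF vs CF and 43.4% for MM vs CM, was 57.1% and 61.0% with median centring and 79.6% and 78.4% without scaling, and median centring moved the median of all genes in MM vs CM to 0.18. The cause was not tested. *Acaca* in MM vs CM was -0.16 with the mean over probes. At an unadjusted p under 0.01 in limma with a fold over 1.5, 1 of the 10 genes (*Elovl6*) and 163 genes in all passed. Leaving out each array in turn, with no sex term, 0 of the 10 genes passed in limma, and of all genes 12 passed without CM and 0 without each of the others. Without scaling, 10 of all genes passed. No paired analysis was possible because the labels give no replicate numbers and each group has 1 array.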

Other observations

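Markers of other organs that the report does not use were also read. The 8 exocrine pancreas markers summed to 13.4 on MF, 23.2 on CF, 44.6 on MM and 26.9 on CM relative to the 75th percentile. The sum on MM is carried by *Amy2a5*, with a log2 level of 5.40, and of 7 markers compared in MM vs CM 2 were over 1.5-fold higher and 4 lower, with a median of -0.72. In MF vs CF 3 of 7 were higher and 1 lower. The 8 skin and sebaceous gland markers, a list that includes *Scd3*, summed to 1.75 on MF, 2.32 on CF, 1 on MM and 2.35 on CM. Their part in the *Scd1* and *Thrsp* values of MM was not tested. Probes with at least 4 windows of 5 bases made only of C and T with at least 3 C made up 8.21% of 54429 probes and none of the 17 probes of the fatty acid synthesis genes.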
